A study of Mus musculus with 4 samples.

Results

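The genes described here are 32 genes of the unfolded protein response and of protein folding in the endoplasmic reticulum (ER), among 55487 gene IDs measured in skin cells labelled as regulatory T cells from mice with a psoriasis-like dermatitis. They were chosen by gene name for what they are known to do, with earlier results of these data known. They comprise 4 sensors and transcription factors and 15 ER folding genes. The others are 6 genes of ER-associated degradation and protein entry into the ER, and 7 genes of the Atf4-Ddit3 arm. All 32 names were found. Of these members, 28 reached at least 1 TPM (the deposited transcript level, scaled to gene length and to the same total in every library) in at least 2 of the 4 libraries and were tested, and 1 of the 28, Sel1l, did so through the UVB libraries alone.

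All mice carried a dermatitis raised by daily imiquimod, a Toll-like receptor 7 agonist, given as 60 mg of a 5% cream on the shaved back. The UVB group, 2 libraries, also received narrow-band ultraviolet B on alternate days, 3 exposures in all. The non-UVB group, 2 libraries, had the dermatitis without irradiation. RNA was sequenced from ultra-low-input libraries of skin cells, and the comparison asks which transcripts of these cells differed after irradiation. No source used here states strain, age, the cell sort or how many mice lie behind a library. The spread that the p-values measure is therefore that between libraries, which may be technical.

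Secreted and membrane proteins fold in the ER with the help of chaperones, lectins and disulfide isomerases. When unfolded proteins accumulate there, the sensors Ern1 (IRE1) and Atf6 and the splicing of Xbp1 raise folding and degradation genes, while the sensor Eif2ak3 (PERK) phosphorylates the translation factor eIF2, which favours translation of Atf4, a factor that raises stress genes such as Ddit3 (CHOP), Trib3 and Chac1. Other eIF2 kinases, which sense amino acid shortage, haem or viral RNA, reach the Atf4 arm without the ER sensors, and Xbp1 is known for building the secretory apparatus of plasma cells.

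These branches are known to act through different promoter elements, and the matching sites of the members are printed here for that reason. RefSeq promoter windows on GRCm38.p6, from 250 bases before to 50 bases after the transcription start, were found for 29 of the 32 members. Both strands of 32851 windows were searched for 4 motifs, whose matches in the members did not overlap each other. The ER stress response element, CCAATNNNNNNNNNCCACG, is the known site of Atf6 and Xbp1 acting with the CCAAT-binding factor NF-Y. It was present in 0.119% of all windows and in 8 members, of which 7 were among 13 folding genes with a window, 1 among 6 degradation genes and 0 among 7 arm genes. The sites follow 5′ to 3′, with the fixed letters of the motif in capitals.
Hspa5, plus strand, -65 to -47 from the start: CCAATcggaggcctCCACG
Hsp90b1, plus strand, -212 to -194: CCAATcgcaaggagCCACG
Hsp90b1, minus strand, -107 to -89: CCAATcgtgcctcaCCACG
Calr, minus strand, -162 to -144: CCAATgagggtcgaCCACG
Canx, plus strand, -145 to -127: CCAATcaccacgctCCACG
Pdia6, plus strand, -98 to -80: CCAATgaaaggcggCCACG
Dnajc3, plus strand, -105 to -87: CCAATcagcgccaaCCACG
Creld2, minus strand, -126 to -108: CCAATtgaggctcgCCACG
Syvn1, plus strand, -44 to -26: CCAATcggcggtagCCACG

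Strands are given relative to the gene, and a minus-strand site is written as read on the opposite strand. The shorter ER stress response element II, ATTGGNCCACG, was present in 0.0365% of windows, among them those of Herpud1 at -52 to -42 and of Dnajb11 at 8 to 18. TGACGTG, the unfolded protein response element, was present in 2.01% of windows and in 1 member, Hspa5, at -157 to -151. TGATGNAAN, the C/EBP-ATF response element through which Atf4 is known to act, was present in 3.95% of windows, in 3 of 7 arm genes, in Herpud1 and in 0 of 13 folding genes. These 4 sites follow in the same style.
Chac1, minus strand, -194 to -186: TGATGcAAc
Trib3, minus strand, 14 to 22: TGATGtAAa
Asns, plus strand, -23 to -15: TGATGaAAc
Herpud1, minus strand, -113 to -105: TGATGcAAc

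The whole windows of 2 folding genes and 2 arm genes are shown to place these sites in genes whose levels differed widely between libraries. Capitals mark the fixed letters of an ER stress response element in Hspa5 and Creld2 and of a C/EBP-ATF element in Trib3 and Chac1. Each window is written 5′ to 3′ on the strand of its gene.
Hspa5, chr2:34771840-34772139, plus strand: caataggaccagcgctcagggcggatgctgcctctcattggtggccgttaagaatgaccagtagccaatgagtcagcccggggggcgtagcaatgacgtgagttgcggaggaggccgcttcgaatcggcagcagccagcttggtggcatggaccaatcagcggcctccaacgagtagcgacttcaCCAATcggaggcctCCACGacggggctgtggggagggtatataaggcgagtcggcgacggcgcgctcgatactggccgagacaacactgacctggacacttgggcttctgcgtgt
Creld2, chr15:88819396-88819695, plus strand: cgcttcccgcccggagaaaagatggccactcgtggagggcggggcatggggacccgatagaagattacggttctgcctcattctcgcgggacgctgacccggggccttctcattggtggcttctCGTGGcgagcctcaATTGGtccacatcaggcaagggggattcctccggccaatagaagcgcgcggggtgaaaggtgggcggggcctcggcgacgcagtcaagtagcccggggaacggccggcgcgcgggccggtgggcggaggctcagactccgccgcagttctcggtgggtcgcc
Trib3, chr2:152344011-152344310, minus strand: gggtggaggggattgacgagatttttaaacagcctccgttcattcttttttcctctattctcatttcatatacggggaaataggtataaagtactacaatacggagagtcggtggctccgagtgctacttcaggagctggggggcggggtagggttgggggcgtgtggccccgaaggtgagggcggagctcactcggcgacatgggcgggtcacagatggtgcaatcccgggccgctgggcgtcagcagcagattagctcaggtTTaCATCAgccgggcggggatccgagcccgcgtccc
Chac1, chr2:119350992-119351291, plus strand: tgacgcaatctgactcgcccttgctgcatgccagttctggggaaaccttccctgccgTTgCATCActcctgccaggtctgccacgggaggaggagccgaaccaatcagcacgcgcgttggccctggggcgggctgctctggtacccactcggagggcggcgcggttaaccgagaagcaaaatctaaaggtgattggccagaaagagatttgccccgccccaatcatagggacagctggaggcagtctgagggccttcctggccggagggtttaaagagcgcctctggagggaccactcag
A match describes these letters only, and a window without a match says nothing about the factor.

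The libraries did not match their label equally. Foxp3, the factor that defines regulatory T cells, was at 3.49 and 19.3 TPM in the library labelled UVB 1 and in UVB 2, against 0 and 19.4 TPM in the libraries labelled non-UVB 1 and non-UVB 2. Summed over 6 markers of gamma-delta T cells, all of them detected, levels were 8780 and 242 TPM in UVB 1 and UVB 2 and 9042 and 176 TPM in non-UVB 1 and non-UVB 2. Thus the libraries numbered 1, in either group, had less Foxp3 and far more gamma-delta T cell transcripts than those numbered 2. Haemoglobin took 11.7% of TPM in non-UVB 1 and between 0.153% and 0.441% in the other libraries. Sequence behind the values amounted to 4.2 and 2.38 gigabases in UVB 1 and UVB 2, and 3.41 and 2.47 gigabases in non-UVB 1 and non-UVB 2. Genes at 1 TPM or more numbered 10317 and 10227 with UVB, against 7825 and 8033 without. For this reason differences are given over all 4 libraries and within each number, and the difference within number 2 is the value without the 2 libraries low in Foxp3. Labels do not say that equal numbers share an animal or a day.

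Over all members, no change with UVB passed the test. With limma on log2(TPM + 1), 0 of 28 tested members had a Benjamini-Hochberg adjusted p under 0.05, and adjusted p ran between 0.344 and 1. The same held for all 10286 tested genes, of which 0% were called. At an unadjusted p under 0.05, 3 members (Manf, Sel1l and Ssr1) were higher and 0 lower with UVB, beside 9.97% of all tested genes higher and 1.37% lower. In 6 members both UVB libraries lay above both non-UVB libraries and in 3 both lay below, beside 23.2% and 9.71% of all tested genes. These counts are near the background, so no result about the members as a whole follows from them. Among the tested members 19 had a higher mean with UVB and 9 a lower mean, beside 6278 higher and 4008 lower of all 10286 tested genes. The median difference of the 28 was 0.44 on the log2(TPM + 1) scale, and that of the 32 members 0.49, beside 0.26 over all tested genes.

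**Figure D1:**
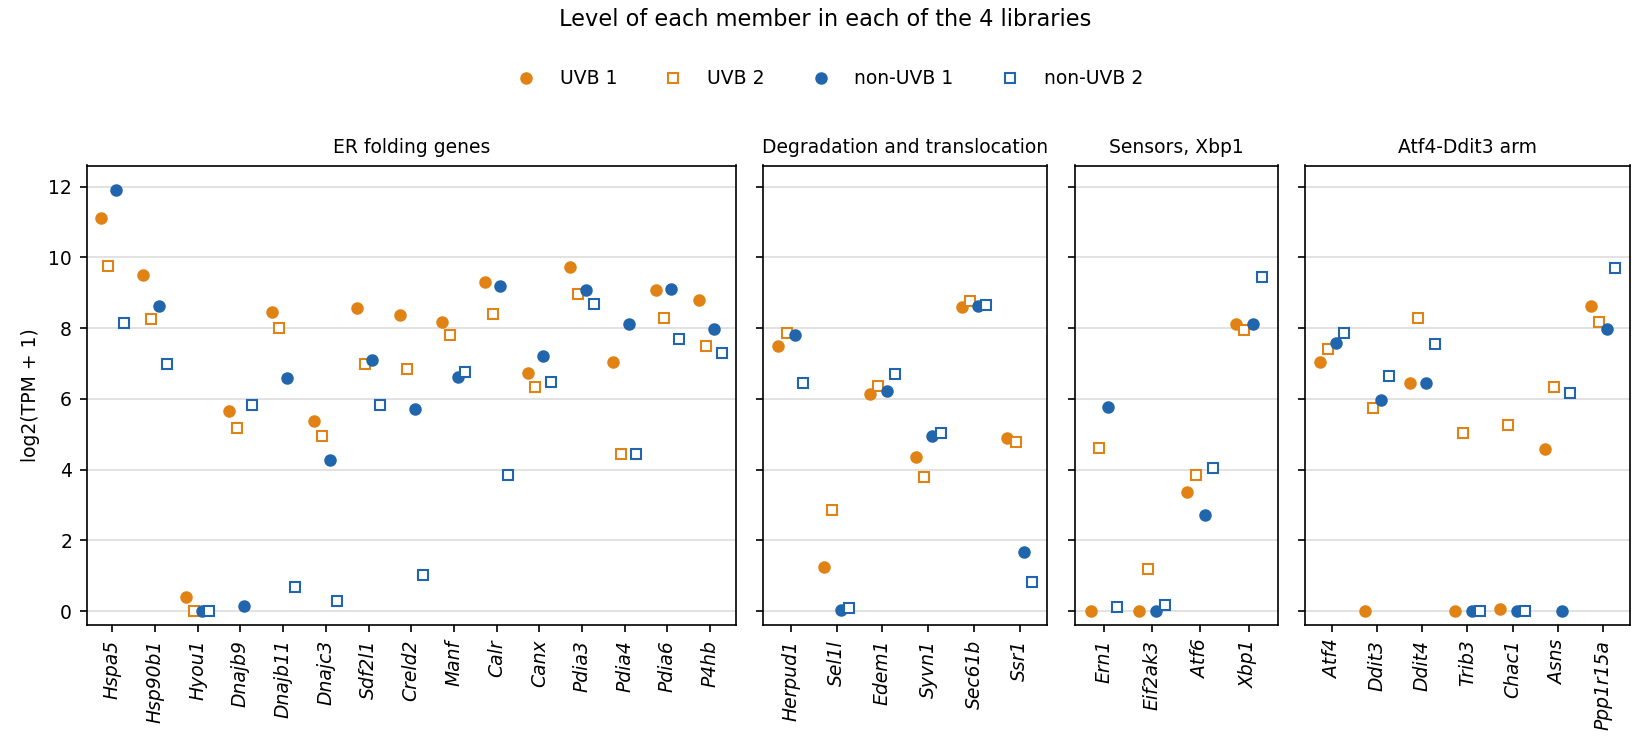
Level of each of the 32 members as log2(TPM + 1), grouped by role, with 1 point per library: UVB in orange and non-UVB in blue, filled circles for libraries numbered 1 and open squares for those numbered 2. Dnajb11, Creld2 and Ssr1 have both UVB points above both non-UVB points, while Trib3 and Chac1 stand off the floor in UVB 2 alone.

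The sensors gave no shared direction. Ern1, the kinase and nuclease that splices Xbp1 mRNA, was listed at 0 in UVB 1 and at 23.6 TPM in UVB 2, against 53.7 and 0.0889 TPM in non-UVB 1 and non-UVB 2. It was thus near 0 in 1 library of each group, and its difference was -5.77 on the log2(TPM + 1) scale between the libraries numbered 1 and 4.49 between those numbered 2. Over all 4 libraries that gave -0.64 ± 2.79 (SE; limma adjusted p = 1). Eif2ak3, the kinase that opens the Atf4 arm, was at 0 and 1.26 TPM with UVB and 0 and 0.118 TPM without, under the level filter. Atf6, which is cut in the Golgi to release a transcription factor, was at 9.29 and 13.5 TPM with UVB and 5.54 and 15.5 TPM without. Its groups overlapped, with a difference of 0.65 within number 1 and -0.18 within number 2.

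Xbp1 was the most abundant member of the sensor group in every library. Its level was 278 and 245 TPM with UVB, against 275 and 697 TPM without, so that non-UVB 2 alone stood apart. The difference was -0.74 ± 0.59 (SE, limma adjusted p = 0.954), made up of 0.02 between the libraries numbered 1 and -1.50 between those numbered 2. Gene-level TPM do not separate spliced from unspliced Xbp1.

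Among the ER folding genes, the means of 12 of 14 tested genes were higher with UVB, Canx and Pdia4 being the exceptions. When the untested Hyou1 is counted, 13 of all 15 were higher. Over all 10286 tested genes, 6278 had a higher mean with UVB. The median difference was 1.19 over the tested genes and 1.08 over all 15, beside 0.26 over all tested genes. It was 0.86 between the libraries numbered 1 and 1.11 between those numbered 2. Without non-UVB 2 it was 0.27, beside 0.25 over all tested genes, and without UVB 1 it was 0.49, beside 0.40, so leaving out either library brought it near the background. With libraries scaled to equal medians, the folding median was 0.58, beside -0.35 over all tested genes, and Hspa5, Pdia3, Pdia6 and P4hb also had lower means with UVB. In bulk RNA, fewer cells of a type and less RNA per cell cannot be told apart.

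Hspa5, which encodes the chaperone BiP that also holds the sensors inactive, lies at chr2:34771970-34777547 on the plus strand (ENSMUSG00000026864, GRCm38). Its level was 2208 and 867 TPM in UVB 1 and UVB 2, against 3817 and 284 TPM in non-UVB 1 and non-UVB 2, the highest of all members in 3 of the 4 libraries. Both UVB libraries lay inside the range of the non-UVB libraries, which spanned 13.4-fold. The difference was 0.41 ± 1.45 (SE, limma adjusted p = 1), with -0.79 between the libraries numbered 1 and 1.61 between those numbered 2. Hspa5 was thus high in the libraries numbered 1 and lower in those numbered 2, whatever the irradiation. Its mean read depth per base was 4010 and 1060 in the UVB libraries and 5570 and 341 in the non-UVB libraries, so these values rest on many reads.

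Other abundant chaperones had the same order of libraries within each group. Hsp90b1, the ER member of the Hsp90 family, was at 727 and 307 TPM with UVB and 392 and 127 TPM without. Calr, a lectin that holds glycoproteins and calcium, was at 636 and 339 TPM with UVB and 583 and 13.4 TPM without. For Sdf2l1, a partner of BiP, levels were 378 and 126 TPM with UVB and 137 and 55.5 TPM without. In all 3 genes the library numbered 1 exceeded the library numbered 2 of its own group, and UVB exceeded non-UVB at either number. Differences were 1.08 ± 0.81, 2.34 ± 1.98 and 1.31 ± 0.85 (SE), and limma adjusted p was 0.936, 0.959 and 0.872, in the order in which the genes were given. Between the libraries numbered 1 the differences were 0.89, 0.12 and 1.45, and between those numbered 2 they were 1.27, 4.56 and 1.17.

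The disulfide isomerases, which form and reshuffle disulfide bonds, were lowest of all in the non-UVB 2 library. Pdia3 was at 844 and 500 TPM with UVB and 541 and 409 TPM without. P4hb, the founding isomerase, was at 443 and 180 TPM with UVB and 250 and 155 TPM without. Pdia6 was at 537 and 314 TPM with UVB, against 548 and 205 TPM without. These 3 genes varied little, by 2.06-fold to 2.85-fold over the 4 libraries, and their groups overlapped. For Pdia4, levels were 131 and 20.9 TPM with UVB and 275 and 20.8 TPM without, so the 2 libraries numbered 2 were alike and those numbered 1 higher. Canx, the membrane-bound partner of Calr, was at 105 and 79.5 TPM with UVB and 147 and 87.3 TPM without, a range of 1.84-fold. Differences of these 5 genes lay between -0.53 and 0.52. They lay between -1.07 (Pdia4) and 0.82 (P4hb) within number 1, and between -0.13 and 0.61 within number 2.

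Manf, a secreted ER protein that protects stressed cells, separated the groups in TPM. Its level was 288 and 223 TPM in UVB 1 and UVB 2, against 98.2 and 107 TPM in non-UVB 1 and non-UVB 2 (chr9:106838312-106891979, minus strand, ENSMUSG00000032575). In TPM both UVB libraries lay above both non-UVB libraries, and each pair was close. The difference was 1.29 ± 0.44 (SE, n = 2 and 2 libraries), with an unadjusted p of 0.0434 and an adjusted p of 0.406 by limma, which does not pass. Between the libraries numbered 1 it was 1.54, and between those numbered 2 it was 1.05. Without the intensity trend the unadjusted limma p was 0.115. With median scaling the difference was 0.69, with an unadjusted limma p of 0.313. Mean read depth per base, not scaled to the sequence behind a library, was 321 and 84.9 with UVB, against 94.6 and 78.6 without. The UVB libraries were thus not close in depth, and those numbered 2, with 2.38 and 2.47 gigabases, differed little in it.

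Creld2, another secreted protein of the ER stress response, was at 333 and 115 TPM with UVB and 51.2 and 1.05 TPM without (chr15:88819646-88826683, plus strand). Dnajb11, a J-domain cofactor of BiP, was at 351 and 256 TPM with UVB and 95.7 and 0.589 TPM without (chr16:22857845-22879634, plus strand). Levels of Dnajc3, another such cofactor known as p58IPK, were 40.1 and 29.8 TPM with UVB and 18.3 and 0.223 TPM without. In these 3 genes both UVB libraries lay above both non-UVB libraries, and the non-UVB 2 library was near the floor. Their differences were 4.25 ± 1.87, 4.60 ± 2.20 and 2.88 ± 1.75 (SE), and limma adjusted p was 0.612, 0.676 and 0.837, so none passed. Between the libraries numbered 1 the differences were 2.68, 1.86 and 1.10, much smaller than the 5.82, 7.34 and 4.65 between those numbered 2.

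Another J-domain cofactor, Dnajb9, had 1 low library in the non-UVB group as well, but the other one. Its level was 49.3 and 35.4 TPM with UVB and 0.0968 and 56.2 TPM without, so the groups overlapped. Hyou1, a nucleotide exchange factor of BiP, was at 0.305 TPM in UVB 1 and listed at 0 in UVB 2, non-UVB 1 and non-UVB 2. Near-floor values of this kind were common: a level under 1 TPM was found for 2, 0, 3 and 5 of the 28 tested members in UVB 1, UVB 2, non-UVB 1 and non-UVB 2. Among all tested genes the shares were 11.8% and 12.7% in the UVB libraries and 28.9% and 27.8% in the non-UVB libraries. A filter at a mean of 50 TPM or more, added after the data were seen, kept 20 of the members. Under it the median difference of the folding genes was 0.80, beside 0.16 over all genes kept.

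**Figure D2:**
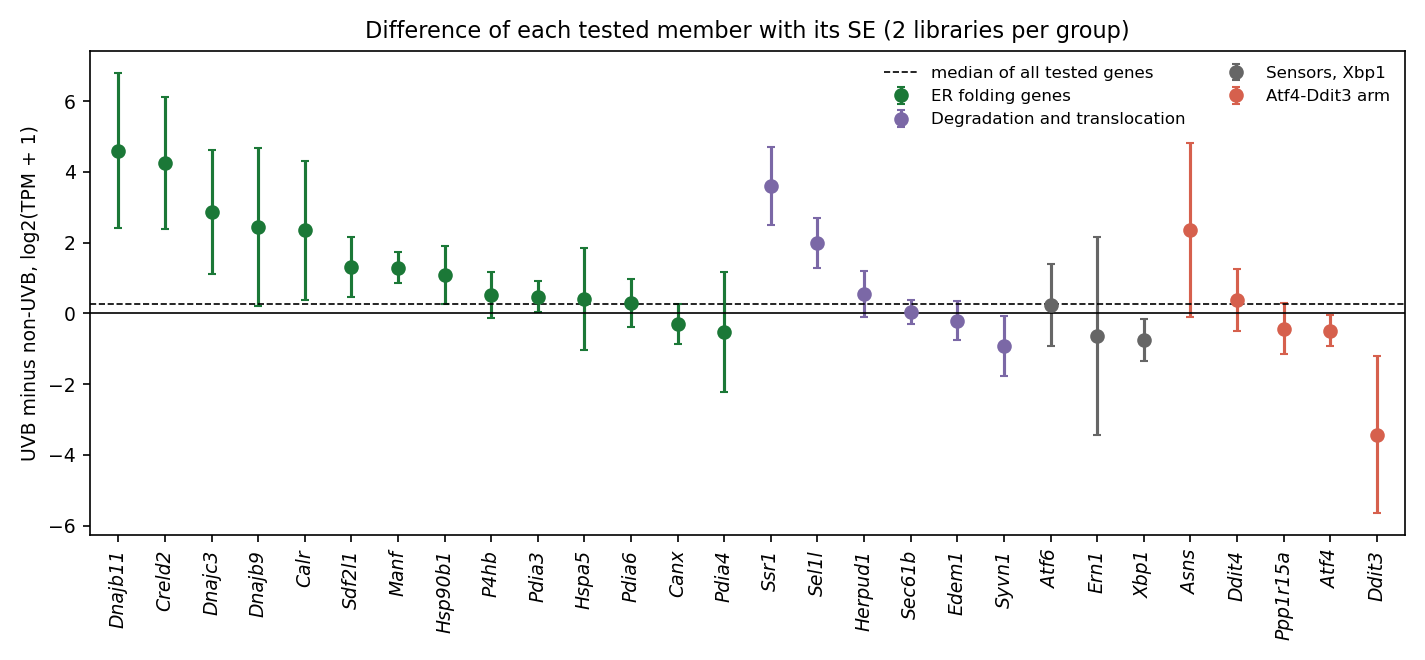
Difference of each of the 28 tested members, UVB minus non-UVB, on the log2(TPM + 1) scale, with bars of 1 SE from limma over 2 libraries per group, coloured by role. The dashed line is the median of all tested genes, 0.26. The longest bars belong to genes near the floor in 1 or 2 libraries, and Manf has a short bar at 1.29.

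Of 6 genes for degradation and entry into the ER, 4 had a higher mean with UVB and 2 a lower mean, with a median difference of 0.29. Ssr1, a subunit of the translocon-associated complex, was at 28.7 and 26.6 TPM with UVB and 2.17 and 0.778 TPM without (chr13:37966605-37994217, minus strand, ENSMUSG00000021427). The UVB libraries were alike and stood well above both non-UVB libraries. This gave the smallest p of the members, with a difference of 3.59 ± 1.10 (SE), an unadjusted p of 0.0322 and a limma adjusted p of 0.344. At the 2 numbers the differences were 3.23 and 3.96. Mean read depth per base was 69.6 and 38.9 with UVB, against 4.38 and 1.19 without.

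Sel1l, which scaffolds the degradation complex, was at 1.37 and 6.19 TPM with UVB and 0.0200 and 0.0684 TPM without. It entered the test through its UVB libraries alone, so it had to be higher there, with a difference of 1.98 ± 0.70 (SE), an unadjusted p of 0.0486 and a limma adjusted p of 0.434. Syvn1, the ubiquitin ligase of the same complex (HRD1), had both UVB libraries, 19.4 and 12.8 TPM, below the non-UVB libraries, 29.9 and 31.7 TPM. Its difference of -0.92 ± 0.85 (SE, limma adjusted p = 0.979) did not pass either.

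The remaining 3 genes of the degradation and entry group differed little. Sec61b, a subunit of the protein-conducting channel, was at 386 and 432 TPM with UVB and 392 and 404 TPM without, the narrowest range of the members at 1.12-fold. Edem1, which marks misfolded glycoproteins for disposal, was at 69.1 and 82.0 TPM with UVB and 73.8 and 102 TPM without. Herpud1, an adaptor of the degradation complex, was at 180 and 231 TPM with UVB and 223 and 86.7 TPM without. The groups overlapped in all 3 genes.

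In the Atf4-Ddit3 arm, 3 of 5 tested genes had a lower mean with UVB and 2 a higher mean. The median difference was -0.43 over the tested genes but 0.37 over all 7, because the untested Trib3 and Chac1 were higher in 1 UVB library. No direction of the arm therefore holds for both sets of genes. Apart from Atf4, each member had at least 1 group whose libraries differed from each other by more than the group means did.

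Atf4, the transcription factor of the arm, was at 132 and 170 TPM in UVB 1 and UVB 2, against 191 and 233 TPM in non-UVB 1 and non-UVB 2 (chr15:80255184-80257541, plus strand, ENSMUSG00000042406). Both UVB libraries lay below both non-UVB libraries. The difference was -0.49 ± 0.44 (SE, limma adjusted p = 0.975), and it was -0.53 and -0.45 at the 2 numbers. Atf4 is governed largely at translation, which mRNA levels do not show.

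Ddit3, the factor CHOP that Atf4 induces, was listed at 0 in UVB 1 and at 52.2 TPM in UVB 2, against 61.1 and 98.6 TPM in the non-UVB libraries (ENSMUSG00000025408, chr10:127290774-127296288, plus strand). The groups did not overlap, but the UVB libraries differed from each other more than the UVB 2 library did from either non-UVB library. The difference was -3.43 ± 2.22 (SE, limma adjusted p = 0.87), with -5.96 between the libraries numbered 1 and -0.91 between those numbered 2. An overlapping gene ID with the same name, ENSMUSG00000116429, was at 0 and 0.428 TPM with UVB and 0.0259 and 0 TPM without. Reads may be shared between the 2 IDs, and no source used here states how the counting split them.

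Targets of the arm were detected in some libraries and not in others. Trib3, a pseudokinase that feeds back on Atf4, was at 32.1 TPM in UVB 2 and listed at 0 in UVB 1, non-UVB 1 and non-UVB 2 (chr2:152337422-152344032, minus strand). Chac1, an enzyme that breaks down glutathione, was at 0.0353 and 37.1 TPM in UVB 1 and UVB 2 and listed at 0 in both non-UVB libraries (chr2:119351229-119354381, plus strand). UVB 2 was the high library for both genes, with a mean read depth per base of 49.9 for Trib3 and 60.6 for Chac1. Each reached 1 TPM in 1 library and so was under the level filter. With no filter, 0 of the 32 members had a limma adjusted p under 0.05, and 2 were higher and 0 lower at an unadjusted p under 0.05.

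Genes found at 30 TPM or more in 1 library and under 1 TPM in the other 3, a threshold chosen after these values were seen, numbered 162 and 202 in UVB 1 and UVB 2 and 155 and 189 in non-UVB 1 and non-UVB 2. That was 4.41% of the genes at 30 TPM or more in UVB 2, and 3.54%, 3.51% and 4.51% in UVB 1, non-UVB 1 and non-UVB 2. The share of genes found in UVB 2 alone thus lay within the range of the other libraries.

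Asns, the asparagine synthetase that Atf4 induces under amino acid shortage, was at 22.9 and 79.5 TPM with UVB, against 0 and 71.1 TPM without. The library listed at 0 was non-UVB 1, and the 2 libraries numbered 2 were alike, with a difference of 0.16 between them. Ddit4, an inhibitor of mTORC1, was at 86.9 and 312 TPM with UVB and 86.9 and 186 TPM without, so both libraries numbered 1 had nearly the same level. Ppp1r15a (GADD34), the phosphatase subunit that restores translation, was at 397 and 287 TPM with UVB and 249 and 828 TPM without. It was the most abundant arm gene in UVB 1, non-UVB 1 and non-UVB 2. Differences were 2.37 ± 2.46 for Asns, 0.37 ± 0.88 for Ddit4 and -0.43 ± 0.72 for Ppp1r15a (SE), with a limma adjusted p of 1 for each.

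**Figure D3:**
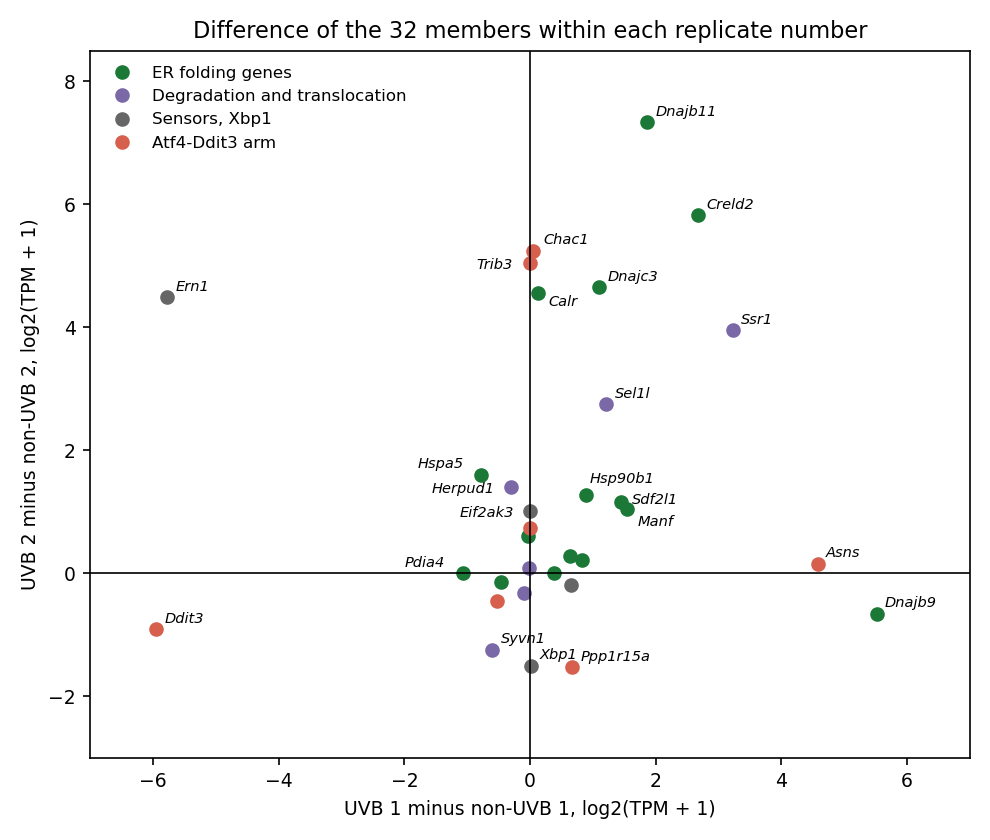
Difference of each of the 32 members, UVB minus non-UVB on the log2(TPM + 1) scale, between the libraries numbered 1 (horizontal axis) and between those numbered 2 (vertical axis), coloured by role. Members within 1 of 0 on both axes carry no name. Dnajb11, Creld2, Dnajc3, Ssr1 and Sel1l lie at the upper right, while Ern1, Asns, Dnajb9, Trib3, Chac1 and Ddit3 were far from 0 at 1 number and nearer to it, or of the opposite sign, at the other.

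Set against each other on the log2 scale, the folding genes stood highest above the Atf4-Ddit3 arm in UVB 1 and lowest in non-UVB 2, and the distance of the other libraries from these depended on the measure. Mean log2(TPM + 1) over the 15 folding genes was 7.75 and 6.79 in UVB 1 and UVB 2, against 6.78 and 4.93 in non-UVB 1 and non-UVB 2. Over the 7 arm genes it was 3.83 and 6.61 with UVB, against 4.0 and 5.42 without. Folding genes exceeded the arm by 3.93 in UVB 1 and 2.78 in non-UVB 1, by 0.18 in UVB 2, and were 0.49 below it in non-UVB 2, a folding minus arm value of -0.49. By these means the UVB library had the higher value at either number, and the gap between the numbers was wider than the gap between the groups. By the median over genes in place of the mean, folding minus arm was 3.88 and 1.17 in UVB 1 and UVB 2, against 1.25 and -0.80 in non-UVB 1 and non-UVB 2. There non-UVB 1 was close to UVB 2, and the gaps between numbers and between groups were of similar size. Both kinds of gene were detected in every library, but genes near the floor weigh on these means. Of the 7 arm genes, 3 and 0 were under 1 TPM in UVB 1 and UVB 2, and 3 and 2 in non-UVB 1 and non-UVB 2. Of the 15 folding genes it was 1 and 1 with UVB, and 2 and 3 without. The wide distance in the libraries numbered 1 thus rests in part on arm genes at or near 0.

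Summed TPM, which the abundant genes decide, gave a different order in the libraries numbered 1. Folding genes summed to 7071 and 3392 TPM in UVB 1 and UVB 2, against 6954 and 1523 TPM in non-UVB 1 and non-UVB 2. Arm genes summed to 639 and 969 TPM with UVB, against 589 and 1417 TPM without. Folding over arm was thus 11.1 and 3.5 with UVB, against 11.8 and 1.07 without, so that non-UVB 1 was slightly above UVB 1, and UVB 2 above non-UVB 2. For the most abundant chaperone over the factor of the arm, Hspa5 over Atf4, the ratio was 16.7 and 5.10 with UVB, against 20 and 1.22 without, in the same order.

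Of the 14 tested folding genes, 13 were highest in a library numbered 1, 9 of them in UVB 1 and 4 in non-UVB 1. Of the 5 tested arm genes, 0 were highest there: 2 were highest in UVB 2 and 3 in non-UVB 2. Among all tested genes the shares were 23.4% and 26.7% in UVB 1 and UVB 2 and 22.1% and 27.9% in non-UVB 1 and non-UVB 2. The median difference with UVB was 1.62 higher for the tested folding genes than for the tested arm genes, a description without a test since genes are not replicates. Without the non-UVB 2 library it was -0.17, while it was 0.86 between the libraries numbered 1 alone and 1.56 between those numbered 2 alone. With no level filter, so over all 15 folding and 7 arm genes, it was 0.71.

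**Figure D4:**
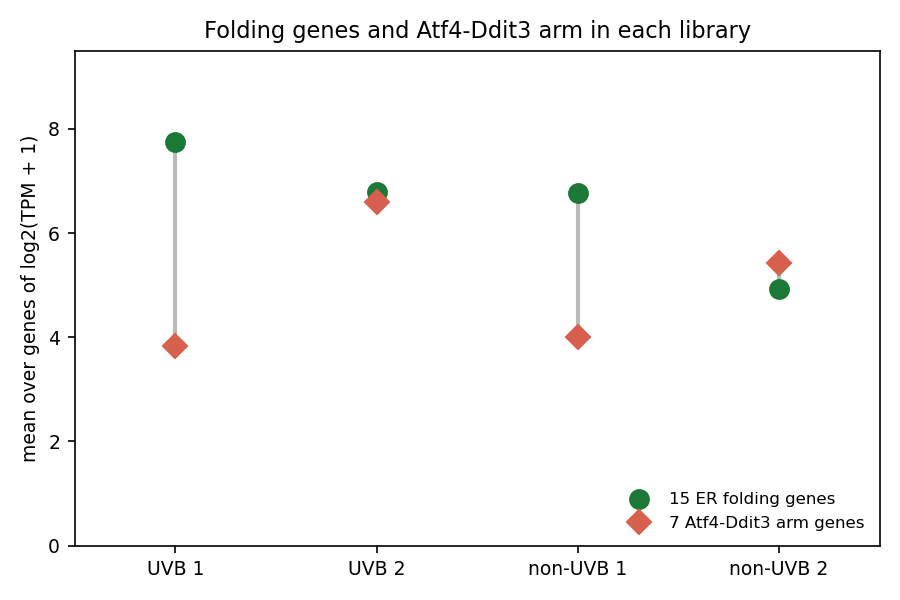
Mean of log2(TPM + 1) over the 15 ER folding genes (green circles) and over the 7 Atf4-Ddit3 arm genes (red diamonds) in each of the 4 libraries, joined by a grey line. The folding genes lie far above the arm in UVB 1 and non-UVB 1, and the means are close in UVB 2 and non-UVB 2. Arm genes under 1 TPM, which lower its mean, numbered 3 and 0 in UVB 1 and UVB 2, and 3 and 2 in non-UVB 1 and non-UVB 2.

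Markers of several cell types also differed between the libraries, some in the order of these levels and others not, and their part in the results was not tested. Gamma-delta T cell markers were high in the 2 libraries where folding genes exceeded the arm most, as given above, and 6 of 6 regulatory T cell markers were detected, summing to 1826 and 5322 TPM with UVB and 1475 and 7311 TPM without. Keratinocyte markers, 6 of 6 detected, summed to 286 and 1973 TPM with UVB and 144 and 2649 TPM without, and Krt14 made up most of this sum. The arm mean was higher in the libraries numbered 2, where the regulatory T cell and keratinocyte sums were higher. Within each number, the library with the higher arm mean had the lower of both sums. The arm means of UVB 1 and non-UVB 1 were close, at 3.83 and 4.0, with 3 of 7 arm genes under 1 TPM in each. What these orders reflect was not tested.

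Myeloid markers, 12 of 12 detected, summed to 18500 and 12020 TPM with UVB and 11120 and 5860 TPM without. The summed TPM of the folding genes had a different order, with non-UVB 1, at 6954 TPM, above UVB 2, at 3392 TPM. In the mean of the folding genes these libraries were nearly equal, at 6.78 and 6.79. Of the 12 myeloid markers 10 had a higher mean with UVB, beside 6278 of the 10286 tested genes. Cd74 was at 4237 and 3838 TPM with UVB, against 3101 and 1940 TPM without. Plasma cells, which are rich in ER, had Jchain, Mzb1 and Tnfrsf17 at 0 in every library, but their other 3 markers were detected. Igkc was at 170.5 and 115 TPM with UVB and 230 and 229 TPM without. Ighm was at 373 and 368 TPM with UVB and 118 and 455 TPM without. Sdc1 was at 18.2 and 195 TPM with UVB and 29.4 and 37.5 TPM without. The 6 plasma cell markers summed to 562 and 678 TPM with UVB and 378 and 721 TPM without. Fibroblast markers summed to 24.0 and 0.0113 TPM with UVB and 55.7 and 0.115 TPM without, with Col1a1, Col3a1, Dcn and Pdgfra at 0. Of these sums, Lum held 24.0 and 0 TPM with UVB and 55.7 and 0.114 TPM without. Mast cell markers summed to 0.00668 and 34.4 TPM with UVB and 3.64 and 0.0527 TPM without, and Mcpt4, Cma1, Fcer1a and Tpsb2 were at 0. Kit alone was at 0.00668 and 34.4 TPM with UVB and 3.64 and 0.0527 TPM without.

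Promoter sites did not line up with a shared size of difference. The 7 folding genes with an ER stress response element ran between -0.30 for Canx and 4.25 for Creld2, with Hspa5 at 0.41. Dnajb11, with the shorter element, was at 4.60, and Syvn1, with the longer element closest to the start, was at -0.92. Of the 3 arm genes with a C/EBP-ATF element, Trib3, Chac1 and Asns, all 3 were at their highest in UVB 2. The same held for Ddit4, an arm gene without a match, and for 26.7% of all tested genes. No test was made of these matches.

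Other genes of the pathway were taken from 5 lists of 90 genes, of which 79 were tested. None had an adjusted p under 0.05 by limma, while 6 were higher and 2 lower with UVB at an unadjusted p under 0.05, beside 9.97% and 1.37% of all tested genes. Of these, 4 of the 6 higher genes passed the level filter through the UVB libraries alone, and 1 of the 2 lower genes through the non-UVB libraries alone. Means were higher with UVB in 58 and lower in 21, beside 6278 and 4008 of all 10286 tested genes. The counts of higher means in each list below are to be read beside that share. The median difference was 0.62. Both UVB libraries lay above both non-UVB libraries in 24 of these genes and below in 11, beside the 23.2% and 9.71% of all tested genes. Lists were described by the 2 genes in each direction with the smallest unadjusted p.

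The list of other folding enzymes had the highest median, 1.54 over 17 tested genes and 1.05 over all 20, with 12 higher and 5 lower means. Cnpy2, an ER protein of the saposin-like family, was at 71.3 and 70.9 TPM with UVB, against 0 and 0.409 TPM without, and passed the level filter through the UVB libraries alone. Mogs, the glucosidase that trims new glycans, was at 58.3 and 61.6 TPM with UVB and 1.36 and 1.24 TPM without. In both genes the UVB libraries were alike and the non-UVB libraries near the floor, with differences of 5.92 ± 1.08 and 4.73 ± 1.04 (SE) and a limma adjusted p of 0.223 for each. Dnajc10, a J-domain reductase, was at 1.23 and 0.127 TPM with UVB and 6.01 and 62.3 TPM without, a difference of -3.73 ± 1.53. Ero1l, the oxidase that recharges the isomerases, was at 92.5 and 85.8 TPM with UVB and 137 and 200 TPM without, a difference of -0.89 ± 0.49. Both had lower UVB than non-UVB libraries and did not pass.

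In the other degradation genes 12 of 14 tested had a higher mean with UVB, with a median difference of 0.48. Erlec1, a lectin of the degradation complex, was at 4.70 and 46.4 TPM with UVB and 0.905 and 0.306 TPM without, both below the level filter. Aup1, which recruits a ubiquitin-conjugating enzyme, was at 194 and 261 TPM with UVB and 54.4 and 162 TPM without. Both UVB libraries were above both non-UVB libraries in these 2 genes. Edem2, a relative of Edem1, was at 88.8 and 0.420 TPM with UVB and 63.8 and 56.0 TPM without, and its groups overlapped.

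Genes of the translocon, signal peptidase and glycosylation were all tested, 21 of 21, with 16 higher and 5 lower means and a median difference of 0.28, close to that of all tested genes. Sec11a, a catalytic subunit of signal peptidase, was at 383 and 222 TPM with UVB and 50.9 and 81.9 TPM without, a difference of 2.16 ± 0.57 (SE, limma adjusted p = 0.259). Spcs3, another subunit of signal peptidase, was at 96.0 and 34.7 TPM with UVB and 20.5 and 1.14 TPM without. Both UVB libraries were above both non-UVB libraries for either gene. Ssr2, a partner of Ssr1 in the same complex, was at 159 and 285 TPM with UVB and 301 and 320 TPM without, and Sec61g at 301 and 208 TPM with UVB and 325 and 331 TPM without. Ssr1 and Ssr2 thus differed in opposite directions, neither past the test.

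Among 7 tested genes of other sensors and factors 4 had a higher mean with UVB. Mbtps2, the protease that makes the last cut in Atf6, was at 0 and 0.0206 TPM with UVB, against 9.73 and 8.49 TPM without, a difference of -3.32 ± 0.64 (SE, limma adjusted p = 0.223). It passed the level filter through the non-UVB libraries alone. Bfar, a regulator of cell death, was at 28.9 and 1.68 TPM with UVB and 0 and 0.127 TPM without, both below the level filter, and Traf2, an adaptor of Ern1, at 89.3 and 76.0 TPM with UVB and 37.1 and 49.3 TPM without. Tmbim6, which restrains Ern1, was at 149 and 238 TPM with UVB and 237 and 225 TPM without.

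Of 20 tested genes in the list of other integrated stress response genes, 14 had a higher mean with UVB and 6 a lower mean, with a median difference of 0.62. Ppp1r15b, the constitutive partner of Ppp1r15a, was at 18.6 and 15.5 TPM with UVB, against 0 and 0.0534 TPM without. Psph, the last enzyme of serine synthesis, was at 22.3 and 49.1 TPM with UVB and 0 and 0.302 TPM without. Both passed the level filter through the UVB libraries alone, with differences of 4.13 ± 0.82 and 4.90 ± 1.08 (SE) and a limma adjusted p of 0.223 each. Eif2ak1, the haem-regulated eIF2 kinase, was at 0.0942 and 5.16 TPM with UVB, against 48.3 and 43.4 TPM without. Slc7a5, an amino acid transporter, was at 19.4 and 3.87 TPM with UVB and 83.5 and 46.1 TPM without, and both UVB libraries were below both non-UVB libraries in these 2 genes.

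**Figure D5:**
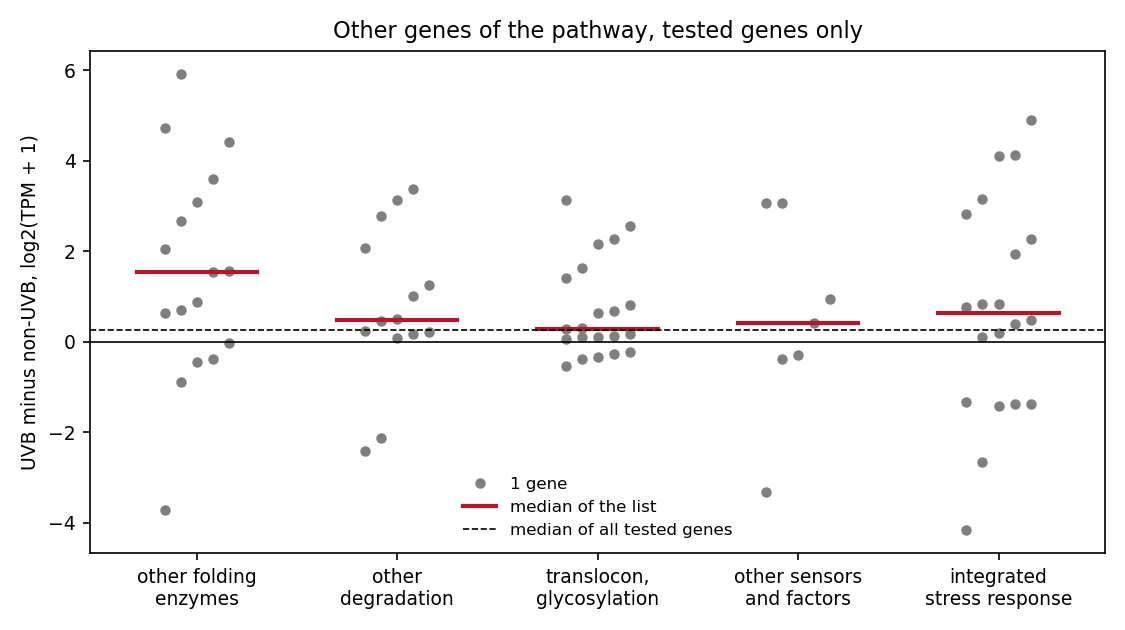
Differences of the 79 tested genes in 5 other lists of the pathway, UVB minus non-UVB on the log2(TPM + 1) scale, with 1 point per gene, a red bar at the median of each list and a dashed line at the median of all tested genes, 0.26. Medians lie between 0.28 for the translocon and glycosylation list and 1.54 for the other folding enzymes, and 0 points passed the test.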

How the data were processed

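RNA was measured in 2 UVB and 2 non-UVB libraries of mouse skin cells. Per the labels' protocols, total RNA was amplified with an ultra-low-input SMARTer kit and read as single-end 100 bp reads. HISAT2, StringTie and DESeq2 are named in the submitters' processing notes beside GRCm38 (mm10), without versions or roles. Per the file headers, the authors deposited a gene table per library with coverage (mean read depth per base), FPKM and TPM, where TPM sum to the same total in every library. No source used here states strandedness, so reads of overlapping or antisense genes may be shared. Read counts were not at hand, so no counting interval was computed. The bases behind the deposited FPKM came from the ratio of coverage to FPKM.

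Rows of a gene ID were summed. Genes at 1 TPM or more in at least 2 of 4 libraries, 10286 in all, were compared on log2(TPM + 1), a scale that understates changes of low genes, with limma 3.58.1 in R 4.3.3. Group was the only term, with an intensity trend and Benjamini-Hochberg adjustment at 0.05 over all tested genes. With 2 libraries per group an exact permutation test cannot go below p = 0.333. The design allowed for read counts, which the files do not hold. All 32 members are named, plus 2 genes per direction with the smallest p in each other list. A gene that this rule picked is not reported here. Members and lists were chosen with earlier results of these data known. Other settings tried were 17 alternatives in scaling, pseudocount, filter, trend, haemoglobin, pairing and libraries left out.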

Additional observations from a re-analysis of the deposited data

How the results depend on the processing

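Depth per gene is unknown beyond mean coverage, 2 libraries per group leave a median SE of 1.12 on the log2 scale, and genes near the floor in 1 library decide many differences. Under the 17 alternatives 0 members and 0 of all genes passed the adjusted threshold wherever limma was run. At an unadjusted p under 0.05, 1026 genes were higher and 141 lower with UVB. Without UVB 1 these counts were 4 and 58, without UVB 2 they were 11 and 22, without non-UVB 1 they were 1391 and 186, and without non-UVB 2 they were 1349 and 100. With quantile normalization they were 655 and 275, with median scaling 654 and 224, with at least 10 TPM in 2 libraries 626 were higher, and among genes averaging 50 TPM or more, chosen after seeing the data, 36 and 14. Members higher at that level numbered 3, but 6 without non-UVB 1, 1 without the intensity trend or among genes averaging 50 TPM or more, and 0 with quantile normalization, with median scaling or without either UVB library. The median of all genes was 0.26, but -0.19 with quantile normalization and -0.35 with median scaling, so small positive differences turn there.

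The folding minus arm median was 1.62 and ran between -0.17 (without non-UVB 2) and 2.31 when a library was left out, where the lone library is assumed to vary like the other group. With no level filter it was 0.71, since the arm median became 0.37. Leaving out a library took Ern1 between -3.46 and 1.67, Atf6 between -0.43 and 0.90, Hspa5 between -1.46 and 2.28, Dnajb9 between -0.42 and 5.29, Calr between -0.33 and 5.01, Canx between -0.67 and 0.068, Pdia4 between -2.36 and 1.30, Pdia6 between -0.42 and 1.0, P4hb between -0.13 and 1.17, Herpud1 between -0.13 and 1.22, Edem1 between -0.44 and 0.028, Sec61b between -0.045 and 0.12, Ddit4 between -0.55 and 1.29, Asns between -0.72 and 5.45 and Ppp1r15a between -1.29 and 0.44. Quantile normalization gave -0.95 for Atf6 and -0.021 for Sec61b. Median scaling gave -0.37 for Atf6, -0.20 for Hspa5, -0.14 for Pdia3, -0.32 for Pdia6, -0.089 for P4hb, -0.059 for Herpud1, -0.57 for Sec61b and -0.24 for Ddit4. Without haemoglobin genes Sec61b was -0.054. Why these values turned was not tested. With the replicate block 984 genes were higher and 126 lower at an unadjusted p under 0.05, 0 passed, and the folding minus arm median was 1.62. Deviations of same-numbered libraries correlated at 0.165 over 10286 genes, and with 2 pairs and no label this does not pair them.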

Other observations

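Some other genes of the integrated stress response, chosen from a list of 24 after their values were seen, were likewise near the floor in some libraries and not in others. Psat1, an enzyme of serine synthesis, was at 31.7 and 65.5 TPM in UVB 1 and UVB 2, against 0.0687 and 87.0 TPM in non-UVB 1 and non-UVB 2. Nupr1, a stress-induced nuclear protein, was at 58.3 and 115 TPM with UVB and 0 and 139 TPM without. Both had the library pattern of Asns, with non-UVB 1 at or near 0. Tnfrsf10b, a death receptor that Ddit3 induces, was at 0.839 and 67.9 TPM with UVB and 0 and 7.60 TPM without. Sesn2, an inhibitor of mTORC1, was at 0 and 6.75 TPM with UVB and 0 and 1.67 TPM without, and Atf5 at 0 and 1.33 TPM with UVB and 0 TPM in both non-UVB libraries. UVB 2 was the highest library for these 3 genes, but over the whole list it was highest in 6 of 20 tested genes, or 30%, beside 26.7% of all tested genes. Other genes of the list were steady, with a highest over lowest level of 1.25-fold for Cebpb, 1.91-fold for Slc3a2 and 2.6-fold for Phgdh. Atf3, in contrast, was at 422 and 345 TPM with UVB and 82.8 and 546 TPM without.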
